A study of Mus musculus with 4 samples.

Results

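The gonadotropin receptor genes Fshr and Lhcgr and 4 genes of the cAMP pathway behind those receptors, Gnas, Prkar2b, Pde10a and Pde4d, were followed in the mouse ovary. These 6 of the 32285 genes in the deposited features were chosen by symbol, and each symbol matched a single gene. Their UMIs (molecular tags that count each captured transcript once) were read in cells assigned to the granulosa, theca and stroma by marker genes that exclude the 6. There were 4 libraries, each a pool of 1 ovary from each of 5 mice treated before puberty, at postnatal day 25, and made with a 10x Genomics 3′ kit. The control mice received PBS or saline, and the doxorubicin mice received doxorubicin, an anthracycline that damages DNA, at 3 mg/kg in 2 weekly doses. The doxorubicin+AMH mice received the same drug with recombinant human anti-Müllerian hormone (AMH) at 0.75 mg/kg, and the AMH mice received 0.75 mg/kg of the hormone alone. Ovaries were taken 4 hours after the second dose. No strain is given in the sources used here. With 1 library per group there was no replicate and no test between groups, so every difference below is between libraries and cannot be told apart from differences between pools, dissociations or library preparations.

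FSH acts on granulosa cells through the receptor encoded by Fshr, and LH acts first on theca cells through the receptor encoded by Lhcgr. Both receptors couple to the stimulatory G protein whose alpha subunit is encoded by Gnas, and adenylyl cyclase then makes cAMP, which binds the regulatory subunits of protein kinase A and frees its catalytic subunits. Prkar2b encodes the type II beta regulatory subunit, while Pde10a and Pde4d encode phosphodiesterases that hydrolyse cAMP (PDE10A also cGMP) and so end the signal. In the follicle this pathway drives androgen synthesis in theca cells and the growth and maturation of granulosa cells.

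In GENCODE M21 (GRCm38, the mm10 build named in the submitters' processing notes) Fshr spans chr17:88984952-89200675 and Lhcgr chr17:88716481-88791990, both on the minus strand and 193 kb apart. Gnas lies at chr2:174284320-174346744 on the plus strand, in an imprinted locus with several starts, where the counted genes Nespas and Gm20721 overlap it on the other strand. Prkar2b lies at chr12:31958476-32061296 on the minus strand, Pde10a at chr17:8525372-8986648 on the plus strand with the antisense gene Gm17087 inside its bounds, and Pde4d at chr13:108449948-109953461 on the plus strand. Whether the authors' counting used introns or strand is not given in the sources used here. Sums over whole genes of such different length are therefore compared between cells and libraries and not between genes.

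All 6 genes were matched to RefSeq start sites on GRCm38.p6, and 4 of the windows are shown because they belong to the receptors and to the other genes whose levels went with them across cell clusters. Each runs 5′ to 3′ over the 250 bases before the first listed start, and capitals mark matches to the motifs searched.
Fshr, chr17:89200676-89200925 (minus strand): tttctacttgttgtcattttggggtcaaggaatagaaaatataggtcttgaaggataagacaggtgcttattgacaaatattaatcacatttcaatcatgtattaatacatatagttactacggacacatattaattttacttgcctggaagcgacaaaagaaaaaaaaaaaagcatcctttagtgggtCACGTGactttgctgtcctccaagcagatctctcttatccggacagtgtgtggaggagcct
Prkar2b, chr12:32061278-32061527 (minus strand): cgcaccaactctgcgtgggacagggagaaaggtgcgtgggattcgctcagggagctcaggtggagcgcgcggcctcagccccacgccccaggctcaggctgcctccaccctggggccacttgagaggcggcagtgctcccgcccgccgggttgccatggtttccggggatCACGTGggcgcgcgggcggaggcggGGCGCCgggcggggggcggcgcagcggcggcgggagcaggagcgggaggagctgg
Lhcgr, chr17:88792015-88792264 (minus strand): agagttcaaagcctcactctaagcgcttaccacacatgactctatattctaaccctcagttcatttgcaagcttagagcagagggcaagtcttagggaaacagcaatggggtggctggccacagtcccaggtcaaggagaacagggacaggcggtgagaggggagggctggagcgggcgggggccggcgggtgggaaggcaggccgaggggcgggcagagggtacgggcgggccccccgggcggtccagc
Pde10a, chr17:8801495-8801744 (plus strand): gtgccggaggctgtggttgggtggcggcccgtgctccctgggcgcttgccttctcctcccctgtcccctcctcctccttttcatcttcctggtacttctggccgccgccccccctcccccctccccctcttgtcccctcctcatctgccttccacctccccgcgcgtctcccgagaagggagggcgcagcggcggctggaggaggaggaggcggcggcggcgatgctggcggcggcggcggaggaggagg
The motifs, on either strand, were the cAMP response element TGACGTCA, its shorter form TGACG (which lies inside the longer one), the E-box CACGTG, the NR5A site CAAGGTCA and the GC-rich SMAD site GGCGCC. Fshr and Prkar2b each held CACGTG, beginning 61 and 80 bases before the start, a word found in 6.02% of the 32851 RefSeq windows of this length. Prkar2b also held GGCGCC at 55 bases before the start (9.59% of windows). The window of the second listed Prkar2b start held none of the 5 words. None of the 5 words was in the Lhcgr, Pde10a or Pde4d windows. Of 4 Gnas starts, 3 held the reverse complement of TGACG (17.8% of windows) and 1 of these also GGCGCC. A pair of these 3 windows overlap and share the same match, so the matches are 2 distinct places. The words TGACGTCA (1.55%) and CAAGGTCA (1.33%) were found in none of the windows of the 6 genes. A match is a description of letters and not a bound site.

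The deposited libraries held 7141 to 9478 cells with median depths of 9834.5 to 13575 UMIs per cell, and pairs of libraries shared 11 to 24 cell barcodes. After filters on UMIs, mitochondrial share and doublets, 28631 cells were grouped into 32 clusters, of which 29 met the marker rule for a class and 3 stayed unnamed. Granulosa-like cells numbered 2018, 1861, 2112 and 2615 in control, doxorubicin, doxorubicin+AMH and AMH, theca-like cells 840, 583, 750 and 920, and stroma-like cells 3043, 2217, 2196 and 2227. All 8 markers of each class were above 0 in its cells, and of these 3 classes each list was highest in the class of its name in every library. Leaving out the 6 genes themselves when naming leading genes, the clusters of theca-like cells divided the libraries. Cluster 10, led by Cyp17a1, Cyp11a1 and Serpina5, held 656, 414, 35 and 32 cells, cluster 7, led by Prss35 and Star, held 46, 71, 587 and 770, and cluster 15, led by Cyp17a1, Cyp11a1 and Sct, held 138, 98, 128 and 118. Below, 4 values in a row stand for control first, then doxorubicin, then doxorubicin+AMH and last AMH. Levels are CPM (the gene's UMIs over all UMIs, both summed over the cells of a class in a library, scaled to counts per 1000000) with exact 95% Poisson intervals, and log2 ratios were taken with 5 CPM added to each level. Intervals cover counting error only.

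The receptors marked the follicle's compartments in every library, and the other 4 genes did not all follow them. In granulosa-like cells Fshr had 143 CPM (139.8 to 146), 131 CPM (128 to 134), 115 CPM (112 to 117) and 98.9 CPM (96.7 to 101). Theca-like cells had 1.35 to 2.31 CPM of Fshr, stroma-like cells 2.34 to 4.18 CPM, macrophage-like cells 2.16 to 6.95 CPM and smooth muscle or pericyte-like cells 1.49 to 7.74 CPM. Of the 6 classes that every library filled with 50 cells or more, granulosa stood apart for Fshr, and the order of the other 5 was not resolved because the ranges of neighbours overlapped. After thinning each cell to 2000 UMIs, an Fshr UMI was found in 19.0%, 17.7%, 17.7% and 15.8% of granulosa-like cells (64.2%, 59.5%, 60.7% and 54.0% unthinned), with 43, 120, 89 and 81 shallower cells left out. In blood endothelial-like cells, which should lack the receptor, the thinned shares were 1.19%, 0%, 0% and 1.20%, and the shares of 0, from 122 and 57 cells, allow up to 2.98% and 6.27% (exact Clopper-Pearson bounds). Median depths were 19187 to 24301 UMIs in granulosa-like and 10824 to 16507.5 UMIs in blood endothelial-like cells.

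Lhcgr was a theca gene by the same measure. Theca-like cells had 443 CPM (435 to 451), 496 CPM (486 to 506), 321 CPM (312 to 329.7) and 366 CPM (358 to 375), against 9.91 to 18.2 CPM in stroma-like cells and 5.17 to 6.27 CPM in granulosa-like cells. The ranges of those 3 classes did not overlap, but macrophage-like cells (0 to 11.2 CPM) and smooth muscle or pericyte-like cells (2.11 to 14.1 CPM) overlapped both stroma and granulosa. Thinned shares of theca-like cells with an Lhcgr UMI were 53.4%, 55.5%, 36.8% and 37.9% (93.0%, 86.4%, 76.5% and 73.7% unthinned). In granulosa-like cells they were 1.42%, 0.919%, 0.840% and 1.46% (11.4%, 9.24%, 7.43% and 7.73% unthinned), near the 0% to 1.75% of blood endothelial-like cells. At these levels no expression of Lhcgr is read for the granulosa class as a whole. Per UMI of the theca gene Aldh1a1, Lhcgr was at 0.0701, 0.0648, 0.0636 and 0.0715 in granulosa-like cells, below the 0.153, 0.172, 0.211 and 0.223 of theca-like cells. Per UMI of Cyp17a1 it was the other way round, at 0.764, 0.686, 5.06 and 4.55 against 0.233, 0.272, 1.02 and 2.66, so the theca genes did not stand in 1 ratio in both classes. Thinned granulosa-like cells with a UMI of both receptors numbered 5, 6, 3 and 9, of 1975, 1741, 2023 and 2534.

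Gnas was spread over all classes and differed little between libraries. It had 838, 819, 833 and 864 CPM in granulosa-like cells, 961, 956, 938 and 949 CPM in theca-like cells and 1279, 1225, 1198 and 1172 CPM in stroma-like cells. These 3 classes kept that order in all 4 libraries. Blood endothelial-like cells overlapped the stroma at 1247 to 1456 CPM, and macrophage-like cells were lowest of the 6 classes at 478 to 580 CPM. Lymphatic endothelial-like cells, with fewer than 50 cells in 2 libraries, had 3073, 2811, 2712 and 3325 CPM.

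Prkar2b was high in both receptor-bearing compartments. Granulosa-like cells had 725, 595, 737 and 732 CPM and stroma-like cells 82.2, 79.7, 89.6 and 90.8 CPM, while theca-like cells ran from 889 CPM in control to 172 CPM in AMH. The granulosa and theca ranges overlapped, and both lay above the stroma and the 3 other classes compared.

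The phosphodiesterase genes had different homes. Pde10a was highest in theca-like cells (778, 326, 1306 and 783 CPM), then in stroma-like cells (126, 123, 143 and 115 CPM), and granulosa-like cells had 42.4, 39.0, 49.0 and 55.7 CPM. Pde4d was highest in blood endothelial-like cells at 405 to 501 CPM and lowest of the 6 classes in granulosa-like cells at 10.4 to 13.3 CPM. Its range in theca-like cells, 37.6 to 219 CPM, overlapped those of the stroma (96.0 to 129 CPM) and the smooth muscle or pericyte-like cells (110 to 162 CPM).

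**Figure D1:**
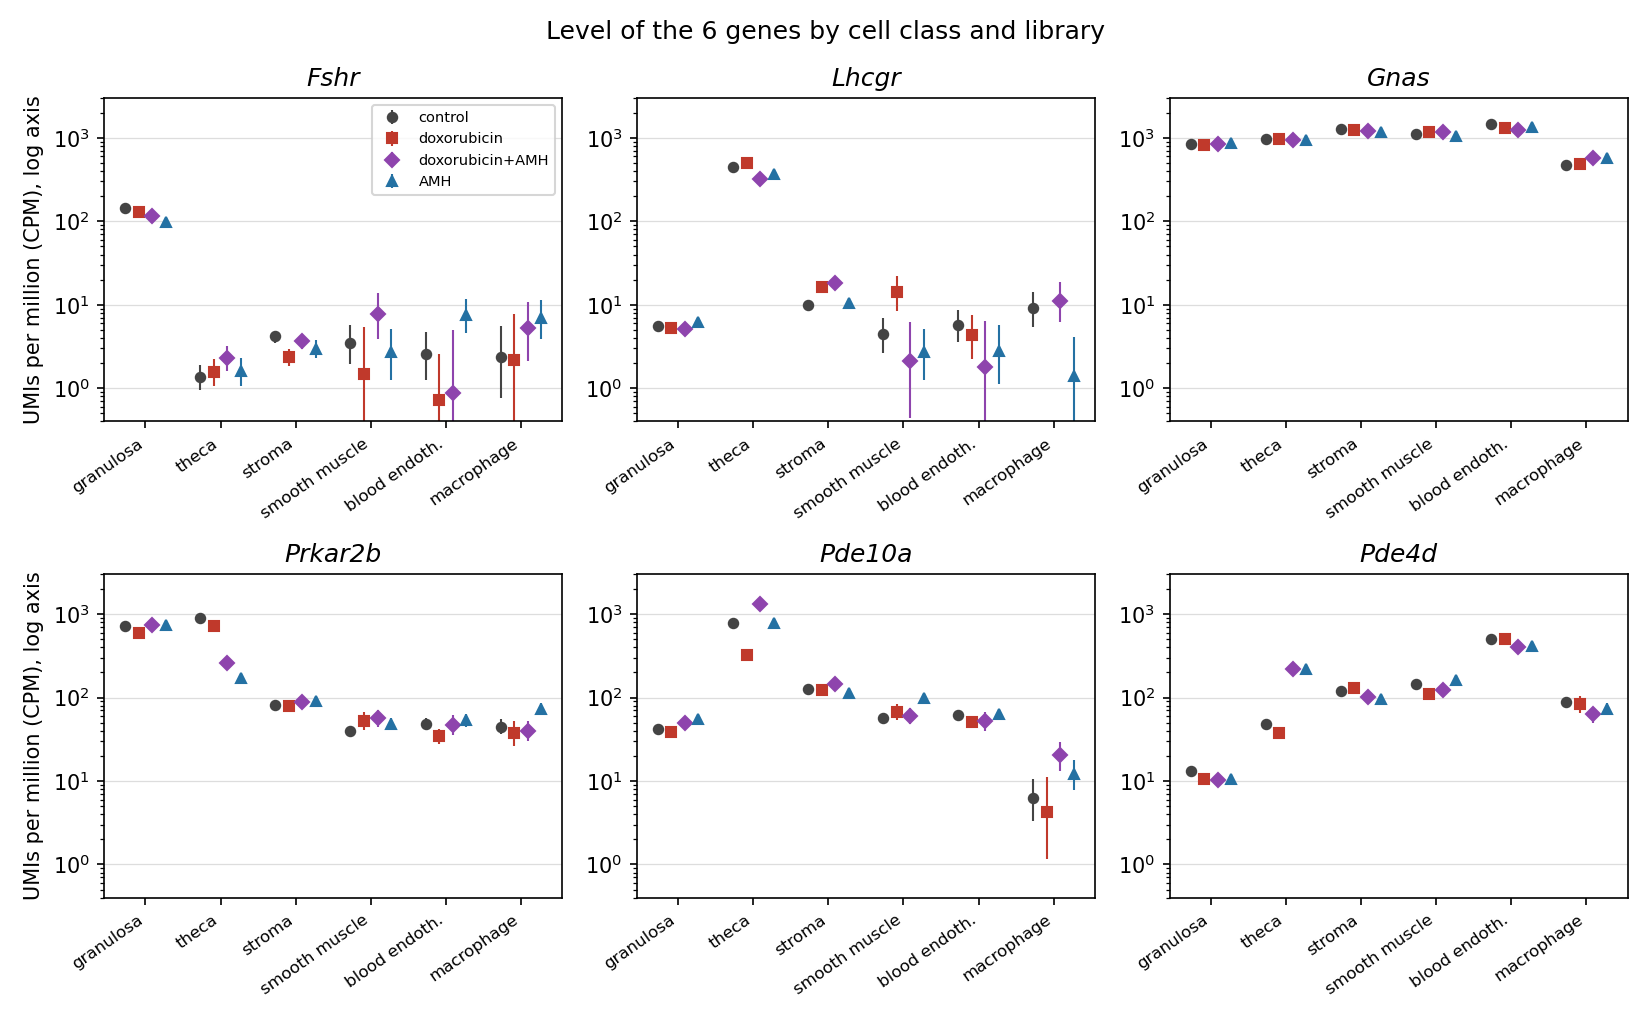
Level of each gene (CPM, log axis) in 6 cell classes, with 1 point per library and bars for the exact 95% Poisson interval; a level of 0 (Lhcgr in doxorubicin macrophage-like cells) has no point. Fshr stands out in granulosa-like cells at 98.9 to 143 CPM and Lhcgr in theca-like cells at 321 to 496 CPM, Gnas differs little between libraries, and in theca-like cells the libraries run from 172 to 889 CPM for Prkar2b, 326 to 1306 CPM for Pde10a and 37.6 to 219 CPM for Pde4d.

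Differences between libraries were read in 4 ratios. The drug ratio without AMH is doxorubicin / control and the drug ratio with AMH is doxorubicin+AMH / AMH, and this pair shares no library. The hormone ratio without the drug is AMH / control and the hormone ratio with the drug is doxorubicin+AMH / doxorubicin, and this pair shares none either, while a drug ratio and a hormone ratio always share a library. A gene was counted as past 1.5-fold when it was at least 1.5-fold higher or lower and averaged at least 20 CPM over the libraries. Of the 6 genes, 4 passed that level in granulosa, 5 in theca and 4 in stroma; Lhcgr and Pde4d in granulosa, Fshr in theca, and Fshr and Lhcgr in stroma did not.

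In granulosa-like cells none of the 4 passed 1.5-fold in any ratio. Over all 6604 genes tested the shares past 1.5-fold were 0.167% and 0.439% for the drug ratios without and with AMH, and 2.45% and 2.91% for the hormone ratios without and with the drug. The log2 ratio farthest from 0 was that of Fshr, at -0.51 for the hormone without the drug, against -0.18 with it, and the drug ratios of Fshr were -0.12 and 0.20. Over the whole class Prkar2b was lowest in the doxorubicin library, at -0.28 against control and with 0.31 for the hormone ratio with the drug. Gnas stayed between -0.05 and 0.04. The hormone ratios of Pde10a were 0.36 without the drug and 0.30 with it, and the latter was 1.00, past 1.5-fold, when cells were assigned one by one by a marker gate in place of clusters.

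Within clusters Fshr was lower with AMH in 5 of the 6 granulosa-like clusters that every library filled with 50 cells or more. In cluster 5, led by Fst, Nap1l5 and Inhba, Fshr had 215, 200.1, 156 and 147 CPM. In cluster 8, led by Inhba, Inhbb and Fst, it had 191, 187, 137 and 139 CPM. Cluster 9, led by Cntn4, Slc18a2 and Amh, the hormone's own gene, had 105, 79.4, 35.9 and 34.5 CPM. Cluster 4, led by Kcnq5 and Bmpr1b, had 87.2, 59.1, 45.4 and 44.6 CPM, and cluster 6, led by Inhba and Hsd17b1, had 187, 219.5, 148 and 148 CPM. In these 5 clusters both libraries with AMH lay below both libraries without it. All clusters come from the same 4 libraries, so they do not repeat the comparison. The share of all genes with this pattern was not computed. Over the whole class the median hormone ratios of all genes were -0.06 without the drug and -0.03 with it. For Fshr the hormone ratios without the drug were -0.90, -0.53, -0.33, -0.45 and -1.47 in clusters 4, 5, 6, 8 and 9, and those with it were -0.35, -0.35, -0.55, -0.43 and -1.04. With the drug, the class ratio of -0.18 was nearer 0 than each of these 5. The mix of clusters differed between libraries: clusters 4 and 9, where Fshr was lower than in clusters 5, 6 and 8, held 622 and 375 of the 2018 control cells and 674 and 265 of the 2615 AMH cells, and 476 and 322 of the 1861 doxorubicin cells and 393 and 175 of the 2112 doxorubicin+AMH cells. Low-UMI cluster 14, the exception, had 18.1 to 21.9 CPM of Fshr from 503 cells, with hormone ratios of 0.04 and -0.05, and cluster 30, with 79 of its 84 cells from doxorubicin, had 16.7 CPM in that library.

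Prkar2b, Pde10a and Lhcgr were all highest among the granulosa-like clusters in cluster 6, whose leading genes also include Nppc, the precursor of a peptide that holds oocytes in meiotic arrest. Prkar2b there had 1935, 1775, 1736 and 1654 CPM, against 292 to 821 CPM in clusters 4, 5, 8 and 9. Within clusters 4, 5, 6, 8 and 9 Prkar2b was lower in doxorubicin than in control (-0.36, -0.34, -0.12, -0.31 and -0.32), but doxorubicin was the lowest library in cluster 8 alone of these 5. The hormone ratio with the drug was 0.40 in cluster 8 and -0.19, -0.05, -0.03 and -0.03 in clusters 4, 5, 6 and 9, so the class value of 0.31 was not seen in those 4. The hormone ratio without the drug was -0.53, -0.40 and -0.23 in clusters 4, 5 and 6 and 0.23 and 0.06 in clusters 8 and 9, beside 0.02 in the class. Lhcgr had 20.9 CPM (17.8 to 24.4), 18.3 CPM (15.3 to 21.7), 13.8 CPM (11.7 to 16.3) and 16.6 CPM (14.5 to 19.0), above its 1.72 to 5.63 CPM in the same 4 clusters. These levels lay above the 0 to 11.2 CPM of macrophage-like cells but overlapped those of smooth muscle or pericyte-like cells (up to 14.1 CPM) and stroma-like cells (up to 18.2 CPM). Cluster 6 also passed the marker rule for 5 of 8 theca markers beside 7 of 8 granulosa markers, and their part in its Lhcgr and Pde10a levels was not tested. Pde10a had 99.6, 94.3, 136 and 121 CPM in cluster 6. In cluster 9 it had 41.1, 41.9, 57.4 and 109.7 CPM, so AMH stood above the other libraries there. In cluster 8 it had 41.8, 19.7, 34.5 and 26.8 CPM, with control highest and doxorubicin lowest (drug ratios of -0.92 and 0.31 without and with AMH). In cluster 4 it had 36.3, 43.0, 30.0 and 44.2 CPM, and in cluster 5 it had 11.5, 16.6, 18.7 and 17.6 CPM. The hormone ratios of Pde10a in clusters 4, 5, 6, 8 and 9 were 0.25, 0.46, 0.27, -0.56 and 1.31 without the drug and -0.46, 0.14, 0.51, 0.68 and 0.41 with it, so each had 1 cluster of the opposite sign to the class.

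**Figure D2:**
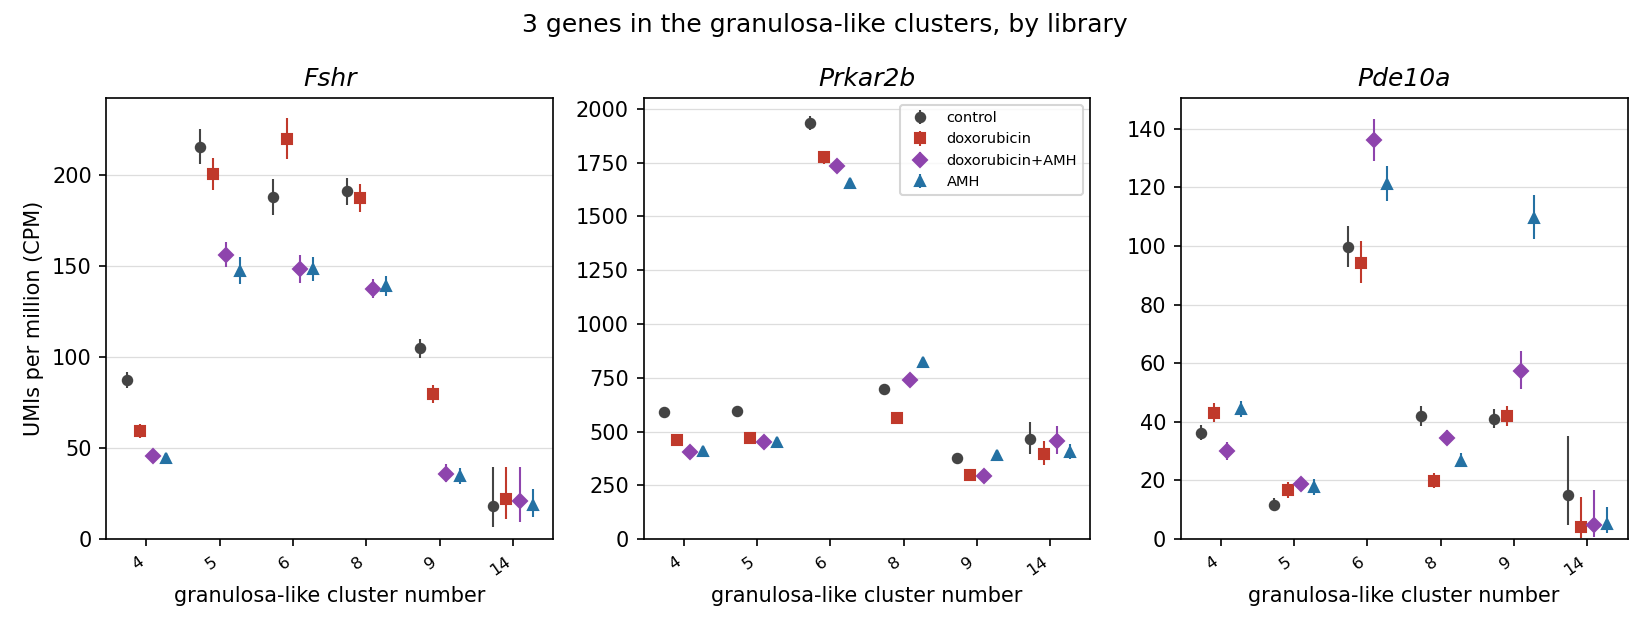
Fshr, Prkar2b and Pde10a (CPM) in the granulosa-like clusters with cells from every library, with 1 point per library and exact 95% Poisson intervals. Fshr is lower in both AMH libraries in clusters 4, 5, 6, 8 and 9, and Prkar2b is at 1654 to 1935 CPM in cluster 6.

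In theca-like cells Prkar2b, Pde10a, Pde4d and, in 1 ratio, Lhcgr passed 1.5-fold. In the drug ratio without AMH 1 of the 5 genes tested did (Pde10a, lower), against 0.463% of 6265 genes. In the drug ratio with AMH 2 of 5 did (Prkar2b and Pde10a, higher), against 0.623%. In the hormone ratio without the drug 2 of 5 did (Prkar2b lower, Pde4d higher), against 14.4%, and in that with the drug 4 of 5 (Lhcgr and Prkar2b lower, Pde10a and Pde4d higher), against 14.2%. The libraries compared in the hormone ratios have most of their theca-like cells in different clusters, 10 without AMH and 7 with it. Summed theca markers in the class were 18309, 17606, 7338 and 6452 CPM, summed stroma markers 799, 805, 1598 and 1674 CPM, and median depths 20559.5, 24356, 14020.5 and 12478 UMIs, and all 3 moved with AMH. So did summed granulosa markers (520, 520, 319 and 364 CPM), luteal markers (1116, 1019, 419 and 404 CPM) and blood endothelial markers (31.6, 35.03, 49.9 and 52.0 CPM). Summed erythroid markers, at 125, 29.8, 443 and 9.24 CPM, were lower in doxorubicin than in control and higher in doxorubicin+AMH than in AMH, as Pde10a was. No marker of the granulosa, stroma, blood endothelial or erythroid lists was at 0 in any library. The part of cell mix, RNA of other cell types and depth in the theca ratios was not tested beyond the values given within clusters.

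Pde10a was lowest in the doxorubicin library and highest in doxorubicin+AMH. With 778 CPM (767 to 789), 326 CPM (318 to 334), 1306 CPM (1288 to 1324) and 783 CPM (770 to 796), control and AMH were alike and the drug libraries lay on either side of them. The drug ratios were -1.24 (-1.30 to -1.21) without AMH and 0.73 (0.71 to 0.77) with it, and the hormone ratios were 0.01 without the drug and 1.99 (1.96 to 2.04) with it. The intervals of ratios were taken without the added 5 CPM, so for lower genes they need not bracket the ratio. Of all genes tested in these cells, 0.0798% had as large a drug ratio as Pde10a without AMH and 0.303% with it. The pattern held within cluster 15, the only theca-like cluster with at least 50 cells in each library, where Pde10a had 836, 239, 1229 and 809 CPM. In cluster 7 it had 1443, 256, 1372 and 771 CPM and in cluster 10 it had 759, 345, 831 and 835 CPM, so doxorubicin was lowest in all 3 clusters while doxorubicin+AMH exceeded AMH in 2 of them. Thinned shares of theca-like cells with a Pde10a UMI were 60.4%, 33.8%, 63.0% and 37.4% (90.4%, 69.0%, 84.1% and 65.9% unthinned). The share in AMH lay below that in control while the CPM were alike, so no order is read from the shares.

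Prkar2b differed with AMH. Theca-like cells had 889 CPM (877 to 900.5), 728 CPM (716 to 740.2), 262 CPM (254 to 270.1) and 172 CPM (166 to 178), so both AMH libraries lay far below the other pair. The hormone ratios were -2.33 (-2.42 to -2.31) without the drug and -1.46 (-1.52 to -1.42) with it, and the drug ratios -0.29 without AMH and 0.59 (0.54 to 0.67) with it. Levels differed between clusters: cluster 10 had 964, 813, 517 and 428 CPM, cluster 15 had 475, 364, 351 and 209 CPM, and cluster 7 had 479, 239.7, 209 and 141 CPM. Within cluster 15 the hormone ratio was -1.17 without the drug and only -0.05 with it, so the difference with AMH on top of doxorubicin was not seen there. AMH was the lowest library in all 3 clusters. The drug ratio with AMH lay at the limit and stayed past 1.5-fold in 5 of 9 alternative analyses.

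Pde4d had 48.1 CPM (45.5 to 50.9), 37.6 CPM (34.9 to 40.4), 219 CPM (212 to 226) and 218 CPM (211 to 225) in theca-like cells, with hormone ratios of 2.07 without the drug and 2.39 with it (2.09 to 2.27 and 2.43 to 2.66 without the added 5 CPM). The AMH libraries were alike and lay above both others. In cluster 15, however, Pde4d had 73.1, 34.2, 79.7 and 73.6 CPM, so the hormone ratio was 0.01 without the drug and 1.11 with it, and doxorubicin stood apart as the low library. Cluster 7 had 106, 46.3, 271 and 272 CPM, and cluster 10 had 43.1, 37.9, 197 and 60.6 CPM. The high class values of the AMH libraries were thus mainly those of cluster 7, which holds most of their theca-like cells.

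Lhcgr in theca-like cells had drug ratios of 0.16 and -0.19 without and with AMH and hormone ratios of -0.27 and -0.62 without and with the drug. With each cell weighted equally the former was -0.61, past 1.5-fold. Of all genes 12.7% had as large a ratio as the latter, which stayed past 1.5-fold in 4 of 9 alternative analyses (-0.01 in cluster 15 alone). Within clusters 15 and 7 Lhcgr was not lower with AMH: cluster 15 had 377 CPM (358 to 398), 384 CPM (362 to 407), 383 CPM (364 to 403) and 391.7 CPM (372 to 412), and cluster 7 had 296, 284, 284 and 333 CPM. Cluster 10 had 456, 524, 498 and 690 CPM, the last 2 from 35 and 32 cells. The intervals of the 4 libraries overlapped for the receptor gene in cluster 15, while doxorubicin stood below the others there for both Pde10a and Pde4d. Gnas ratios in theca-like cells stayed between -0.03 and -0.01.

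**Figure D3:**
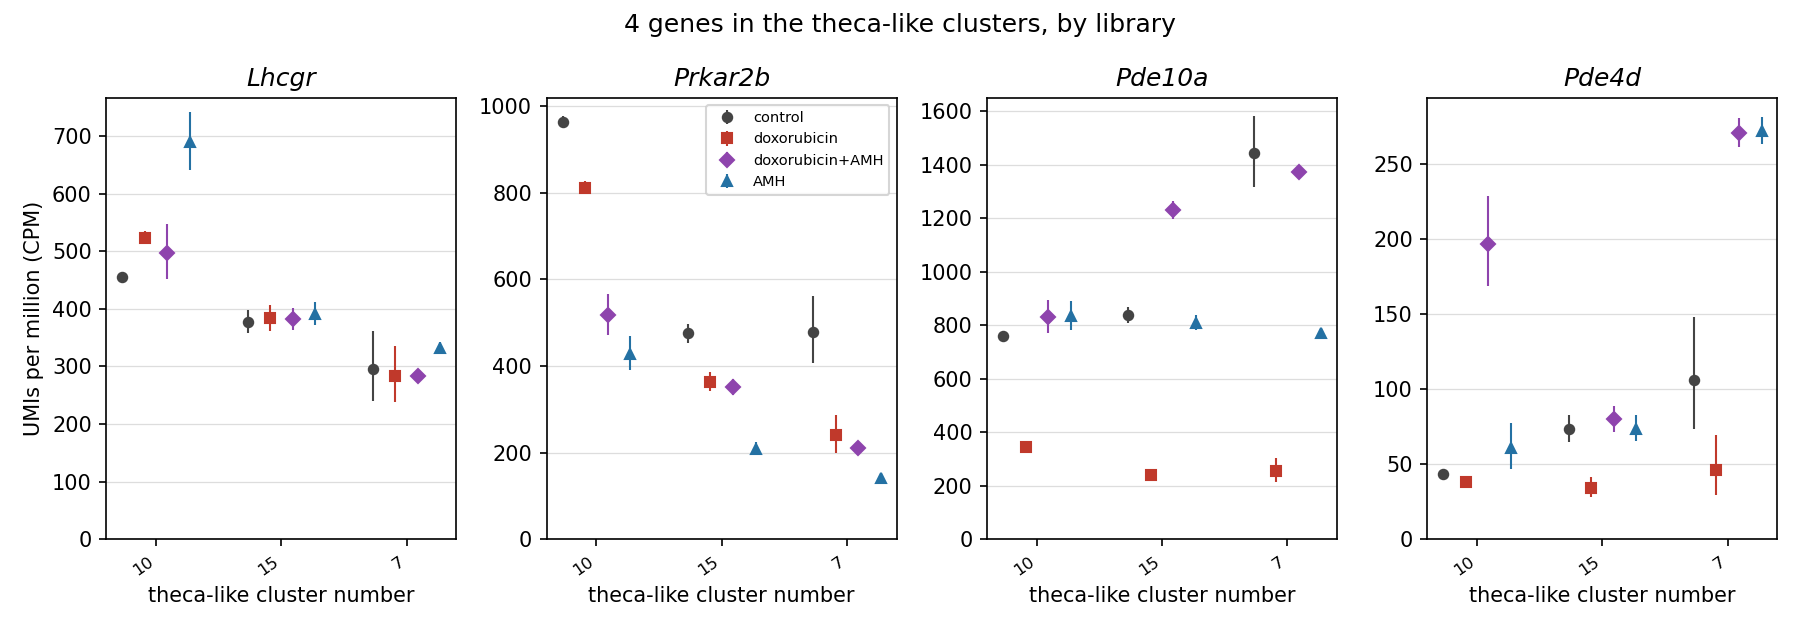
Lhcgr, Prkar2b, Pde10a and Pde4d (CPM, axes from 0) in the 3 theca-like clusters, with 1 point per library and exact 95% Poisson intervals. In cluster 15 Lhcgr is at 377 to 391.7 CPM in all libraries, while Pde10a is at 239 CPM in doxorubicin and 1229 CPM in doxorubicin+AMH.

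In stroma-like cells none of the 4 genes tested passed 1.5-fold, against 0.419% and 0.584% of 6678 genes in the drug ratios without and with AMH and 0.943% and 1.12% in the hormone ratios without and with the drug. Pde4d was at 119, 129, 101 and 96.0 CPM, with hormone ratios of -0.29 and -0.33 (the latter -0.66, past 1.5-fold, with the marker gate), and within the class it was highest in cluster 12, led by Dpt, Clec3b and Col1a1, at 283, 480.1, 352 and 284 CPM. Lhcgr, below the level required, had 9.91, 16.2, 18.2 and 10.5 CPM, higher in both drug libraries, with drug ratios of 0.51 and 0.58. Lhcgr was highest in cluster 13, the dividing cells led by Enpep, Hhip, Prc1 and Top2a, at 20.5, 60.8, 64.6 and 37.0 CPM (drug ratios of 1.37 and 0.73), and that cluster also passed for 4 of 8 theca markers. Cluster 3, with Enpep and Col15a1 among its leading genes, had 14.1, 12.5, 14.6 and 9.54 CPM, with drug ratios of -0.13 and 0.43. The drug ratios of Lhcgr were -0.43 and -0.39 in cluster 2, 0.08 and -0.18 in cluster 0, and -0.03 and -0.01 in cluster 12. Without cluster 13 the class ratios were -0.11 and 0.22. Summed theca markers in stroma-like cells were 309, 367, 361 and 311 CPM, so they too were higher in the drug libraries; their part in the Lhcgr values was not tested. Fshr UMIs per UMI of Inha, a granulosa gene, were 0.0668, 0.0349, 0.0274 and 0.0175 in stroma-like cells and 0.0635, 0.0591, 0.0328 and 0.0347 in granulosa-like cells, so relative to Inha the stroma held more Fshr than granulosa in control and less in the other 3 libraries.

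**Figure D4:**
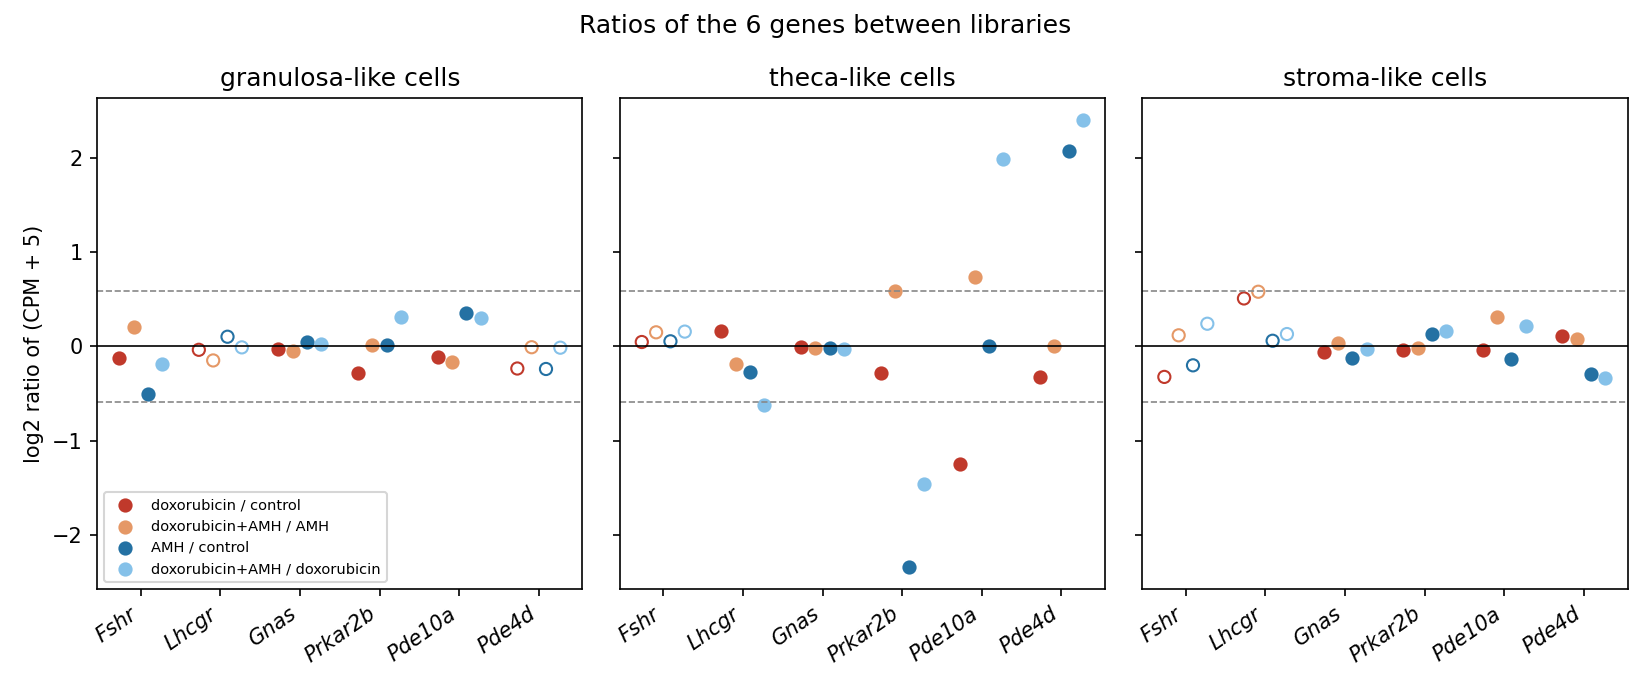
Log2 ratios of the 6 genes in 3 cell classes for the 4 comparisons, with dashed lines at 1.5-fold and open circles for genes that average under 20 CPM. All points past the lines are in theca-like cells: Prkar2b and Pde4d in both hormone ratios, Pde10a in 3 ratios, Prkar2b in doxorubicin+AMH / AMH at the line, and Lhcgr in doxorubicin+AMH / doxorubicin.

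The other genes of the pathway were taken from a list of 74 (receptors coupled to the stimulatory G protein, G protein subunits, cyclases, phosphodiesterases, protein kinase A subunits and inhibitors, anchoring and exchange proteins, desensitising kinases and arrestins, and transcription factors of the CREB family with their coactivators). In granulosa-like cells 29 and in stroma-like cells 40 of the 74 averaged at least 20 CPM, and none of them passed 1.5-fold in either direction in any of the 4 ratios. Of all granulosa genes 0.0757% were higher and 0.0909% lower in the drug ratio without AMH, and 0.151% and 0.288% with it, and of all stroma genes 0.344% and 0.0749% without AMH and 0.0898% and 0.494% with it. In the hormone ratio without the drug 0.666% of all granulosa genes were higher and 1.79% lower, and with the drug 0.818% and 2.09%. In stroma these shares were 0.299% and 0.644% without the drug and 0.24% and 0.883% with it. The granulosa medians lay between -0.07 and -0.03, beside -0.06 to 0.00 over all genes. In granulosa-like cells the named extremes were small: Grk5, a receptor kinase, and the phosphodiesterase gene Pde8a had hormone ratios of 0.51 and 0.35 and of 0.32 and 0.36, Gnai1 -0.30 and -0.29, Pde7a -0.37 and -0.27, and Pde1a drug ratios of -0.41 and -0.39. In stroma-like cells the hormone ratios of Grk3 were -0.39 and -0.43. Pde7b, another cAMP phosphodiesterase, had 786, 575, 695 and 768 CPM in granulosa-like cells; it is named after its values were seen.

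In theca-like cells 33 of the 74 were tested. In the drug ratio without AMH 0 were higher and 1 lower (0.208% and 0.255% of all genes), and with AMH none passed (0.367% and 0.255%). In the hormone ratio without the drug 4 were higher and 2 lower (5.99% and 8.4% of all genes), and with the drug 5 and 2 (5.81% and 8.41%). Their median ratios were -0.08, 0.00, -0.08 and 0.05 in that order, beside -0.01, 0.01, -0.07 and -0.04 over all genes. Highest by whichever hormone ratio was closer to 0 was Pkia, an inhibitor of the protein kinase A catalytic subunit, at 66.3, 66.8, 200.3 and 178 CPM (1.36 and 1.52). Next was Rgs2, a regulator of G protein signalling, at 79.6, 87.0, 211 and 179 CPM (1.12 and 1.24). Lowest by the ratio closer to 0 was Pde8b, a cAMP phosphodiesterase of steroidogenic cells, at 137, 118, 47.7 and 54.0 CPM (-1.27 and -1.22). Next by that measure was Akap1, a mitochondrial anchor of protein kinase A, at 67.4, 67.8, 44.8 and 44.2 CPM (-0.56 and -0.55, both under 1.5-fold). The 1 gene lower in the drug ratio without AMH was Pde7b, with 90.8, 49.3, 223 and 195 CPM (-0.82, and hormone ratios of 1.06 and 2.07), and with doublets left in no gene of the list passed in that ratio. Crem, a cAMP-responsive transcription factor, had 0.60 and 0.96, Gnai1 0.45 and 0.80, the regulatory subunit gene Prkar1a -0.80 and -0.34, and Adcy9 -0.53 and -0.74 as hormone ratios. Pde7b, Crem, Gnai1, Prkar1a and Adcy9 are named after their values were seen, to complete these counts. Within cluster 15 alone 2 and 3 genes passed in the hormone ratios in place of 6 and 7. The share of all 6132 genes tested in that cluster was 4.01% and 4.97% in the hormone ratios and 2.89% and 2.48% in the drug ratios.

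**Figure D5:**
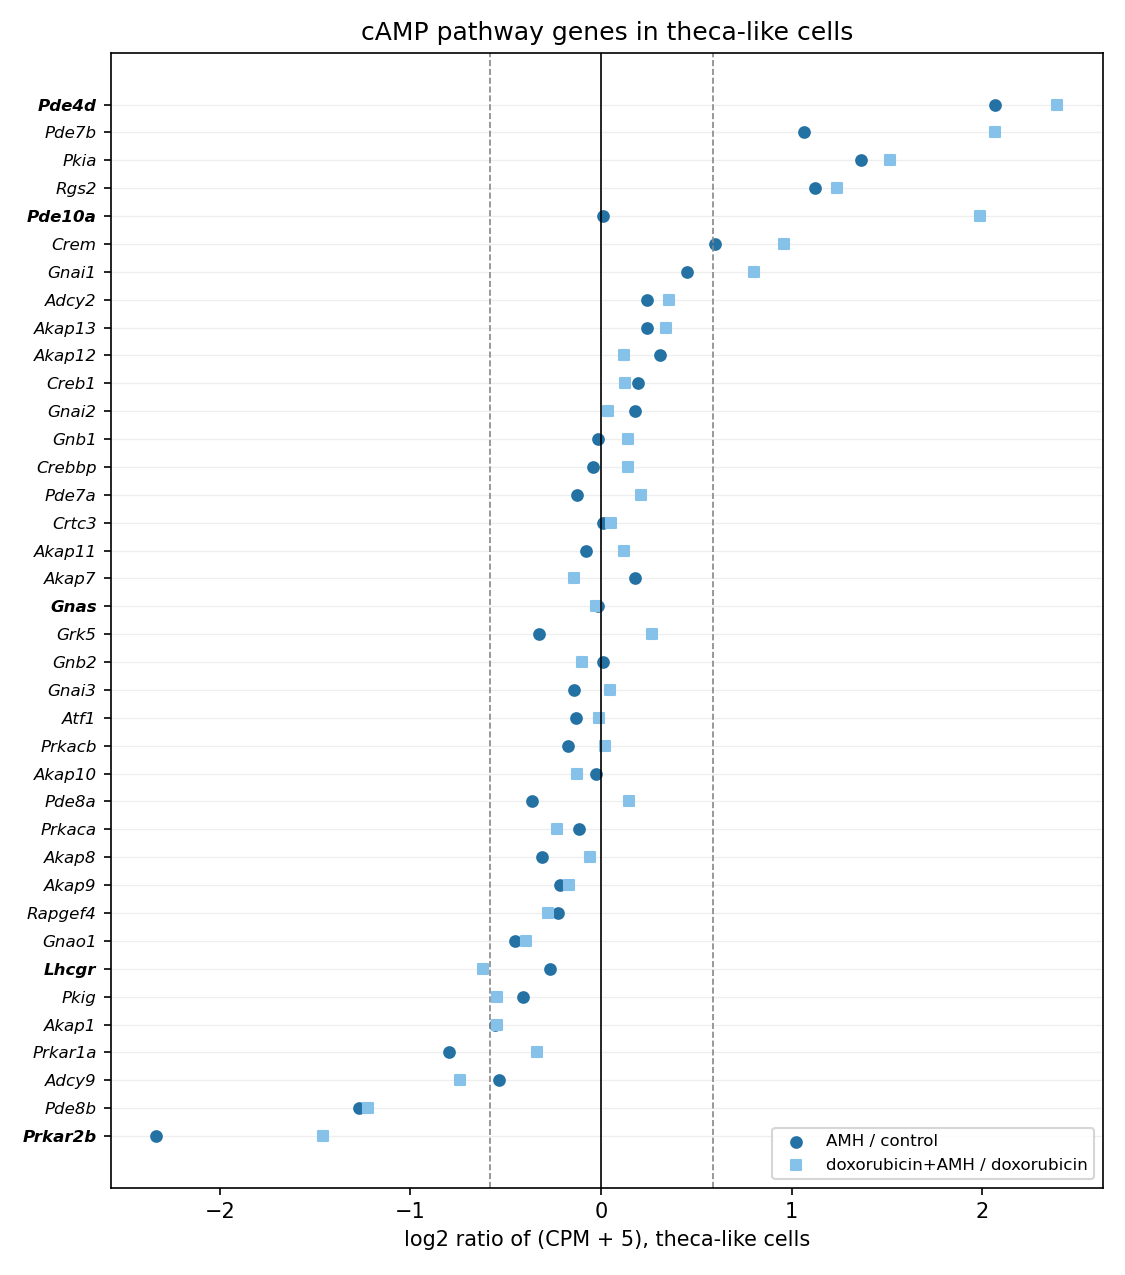
Log2 ratios in theca-like cells for the 33 tested genes of the cAMP pathway list and 5 of the 6 genes followed here (bold), with AMH / control as circles and doxorubicin+AMH / doxorubicin as squares; dashed lines mark 1.5-fold. Pde4d and Prkar2b lie at the ends of the plot, and Pde10a has the widest gap between its pair of ratios, 0.01 and 1.99.

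Genes known to respond to FSH or LH were read from a list of 26, of which 13 were tested in each class. Of this list, Cyp17a1, Cyp11a1, Star, Hsd3b1, Fdx1 and Insl3 are also theca markers, and Hsd17b1, Inha and Nr5a2 also granulosa markers. Its counts are therefore not independent of the class names or of the summed markers. In theca-like cells 2 were higher and 8 lower in each hormone ratio (5.99% and 8.4% of all genes without the drug, 5.81% and 8.41% with it), with medians of -1.05 and -0.74 beside -0.07 and -0.04 over all genes. The lowest by the ratio closer to 0 were Cyp17a1, the enzyme that makes androgens, at 1899, 1822, 315 and 138 CPM (-3.74 and -2.51), and Cyp11a1, which makes pregnenolone, at 3368, 3168, 572 and 484 CPM (-2.79 and -2.46). Insl3, at 79.7, 59.6, 12.4 and 16.6 CPM, was also among the lower genes. It was under 20 CPM in both AMH libraries and reached the level required for a count through the other libraries. Its place in the count is not read against the share of all genes. The 2 higher genes were Adamts1, a protease of the ovulating follicle, at 86.6, 77.0, 203 and 174 CPM, and Nr4a1, an immediate early nuclear receptor, at 469, 462, 747 and 746 CPM. Cyp17a1 and Cyp11a1 are also leading genes of clusters 10 and 15, and cluster 15 alone gave 4 genes past 1.5-fold in each hormone ratio in place of 10, while the share of all genes there was 4.01% and 4.97% of 6132 in place of 14.4% and 14.2%. In the drug ratios 1 and 2 genes were higher (0.208% and 0.367% of all genes) and none lower (0.255% in both). The 1 gene without AMH was Inhba (0.80), and those with it included Cyp17a1 (1.16); they are named here after their values were seen. With doublets left in the counts were 0 without AMH and 1 with it. Cluster 15 alone gave 4 genes past 1.5-fold in the drug ratio without AMH and 1 with it, beside 2.89% and 2.48% of all genes there.

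In granulosa-like cells 2 target genes were higher and 1 lower in the hormone ratio without the drug (0.666% and 1.79% of all genes), and 3 and 1 with it (0.818% and 2.09%), while none passed in the drug ratios. Inhba, the activin beta A subunit, had 481, 572, 1014 and 884 CPM (0.87 and 0.82), and Hsd17b1, which makes estradiol, had 317, 377, 684 and 516 CPM (0.69 and 0.85). Cyp11a1 was the lower gene at 32.8, 35.6, 22.0 and 20.1 CPM (-0.59 in both), and Inha was the additional higher gene with the drug (0.66, named after its values were seen). Theca-like cells had 3368, 3168, 572 and 484 CPM of Cyp11a1, and granulosa-like cells had 467, 458, 64 and 104 UMIs of the theca gene Cyp17a1. Both were lower with AMH. Summed theca markers in granulosa-like cells, which include Cyp11a1, were 950, 886, 1115 and 993 CPM, higher with AMH. The part of theca RNA in the Cyp11a1 values was not tested. Clusters 5, 6 and 8, each with Inhba and Hsd17b1 among its leading genes, held 47.0%, 44.8%, 68.3% and 57.1% of granulosa-like cells, so their share was higher in the AMH libraries too. Within clusters the hormone ratios of Inhba ran from 0.16 and -0.07 in cluster 5 to 1.92 and 1.31 in cluster 9, with -0.47 and 1.23 in low-UMI cluster 14. Those of Hsd17b1 were 0.31 to 1.11 without the drug and 0.20 to 0.93 with it in clusters 4, 5, 6, 8 and 9, and -0.25 and 1.03 in cluster 14. So the higher class levels went with both the mix and higher levels in clusters 4, 6, 8 and 9. In stroma-like cells 2 were higher and 1 lower (Cyp11a1, -0.77 and -0.91) in each hormone ratio (0.299% and 0.644%, then 0.24% and 0.883% of all genes). The higher ones were Inha and Inhba, at 62.6, 67.0, 134 and 170.4 CPM and 13.4, 16.7, 30.0 and 38.9 CPM. Inhba was under 20 CPM in both libraries without AMH and reached the level required for a count through the AMH libraries, so its place in the count is not read against the share of all genes. Summed granulosa markers in stroma-like cells were 325, 351, 467 and 504 CPM, and that list includes Inha itself. There, smooth muscle or pericyte markers summed to 647, 601, 1033 and 916 CPM and luteal markers to 102, 99.4, 58.6 and 62.8 CPM. Cyp17a1 had 388, 365, 357 and 68 UMIs in stroma-like cells. The part of these other markers and of theca RNA in the target gene values was not tested.

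Levels of the 6 genes were also compared over 93 sums of at least 50 cells, each a cluster in a library, by Pearson correlation of log2(CPM + 5) with 13679 other genes. Sums of 1 library share its preparation and depth, so these values are descriptions. Most like Fshr were Gm34388, Slc6a15 and Dpysl5 (r of 0.942, 0.942 and 0.941), and most like Lhcgr were Fdx1 (0.911), the electron donor of mitochondrial steroid synthesis, Gsta2 (0.903) and Sct (0.885), which encodes secretin. Prkar2b was most like 8030451A03Rik (0.916), St3gal5 (0.888) and Tdrd5 (0.887), and Gnas most like Add1 (0.886), Ehd2 (0.844) and Amotl1 (0.826). Pde10a was most like Tcaf1 (0.786), Prss35 (0.775) and Ryr2 (0.770), and Pde4d most like Nr3c1 (0.815), the glucocorticoid receptor gene, Fas (0.807) and Tshz3 (0.805). Among the 6 genes themselves the highest values were 0.762 for Fshr with Prkar2b and 0.689 for Lhcgr with Pde10a. The lowest were -0.742 for Prkar2b with Pde4d and -0.730 for Fshr with Pde4d.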

How the data were processed

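The deposited matrices hold unnormalized UMI counts (genes by barcodes), and per the file headers Cell Ranger 7.0.0 made them; the submitters' processing notes name mm10, R 4.2.0 and Seurat 4.1.0. Barcodes under 1000 UMIs or over 20% mitochondrial UMIs were dropped, and Scrublet doublets were removed at 0.8% per 1000 cells (scanpy 1.11.5). Clustering used 2000 variable genes without the 6 genes, both gene lists and mitochondrial genes, 30 principal components, 20 neighbours (edges with an overlap under 0.0667 dropped) and Leiden resolution 1.0 (leidenalg 0.10.2), with no batch correction. A cluster was called "-like" a class when at least 3 markers and 60% of the list lay 1 log2 unit above the median cluster and in at least 10% of its cells; it stayed unnamed when another list led its top 10 genes, or when its UMIs were under 33.3% of the library median with no marker there. UMIs were summed per library and class, and ratios used 5 CPM and genes averaging 20 CPM. The ratio code was run on simulated counts with planted changes and counting error only, which says nothing about variation between pools or preparations. Unless marked as named after their values were seen, the genes named from each list are from the 2 highest and 2 lowest per class. These were picked by the ratio closer to 0 of each pair of drug or hormone ratios with matching signs, and not all are named. The 3 genes most alike per member are also given. The 6 genes, lists and thresholds were chosen with earlier results of these data known. Alternatives changed the scaling, the added CPM, the filters, doublets, cell weights and the way cells were assigned; 6 that dropped or added whole clusters were chosen after seeing the data. Results for some genes are not reported here.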

Additional observations from a re-analysis of the deposited data

Results flagged for a closer look

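In theca-like cells the Pde10a ratio for doxorubicin+AMH / AMH exceeded that for doxorubicin / control by 1.98 log2 units, because the drug libraries lay on opposite sides: Pde10a was lower in doxorubicin than in control (-1.24) and higher in doxorubicin+AMH than in AMH (0.73). The difference was not tested, since each group had 1 library. Within cluster 15, filled by all libraries, the ratios were -1.79 and 0.60, in cluster 7 they were -2.47 and 0.83, and in cluster 10, with 35 and 32 cells in the AMH libraries, they were -1.13 and -0.01.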

How the results depend on the processing

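The 36 counts of genes past 1.5-fold were recomputed under each alternative, except that the 12 counts of the 6 genes were not recomputed without the low-CPM filter, and 347 of the 384 values stayed within 1.5 times the reported count. Most of the 36 reported counts were 0, and such a count stayed only where the alternative also gave 0. Using only theca-like cluster 15 gave 2, 1 and 2 of the 6 genes for doxorubicin / control, AMH / control and doxorubicin+AMH / doxorubicin, 2 and 3 pathway genes for the hormone contrasts, and 4, 1, 4 and 4 target genes for doxorubicin / control, doxorubicin+AMH / AMH, AMH / control and doxorubicin+AMH / doxorubicin. Prkar2b in doxorubicin+AMH / AMH was under 1.5-fold with doublets left in, a mitochondrial limit of 10%, at least 500 UMIs or the per-cell gate, which left 1 gene each (ratios 0.53 to 0.73 over all alternatives). Lhcgr in doxorubicin+AMH / doxorubicin was under it with median-of-ratios scaling (-0.57), the mitochondrial limit (-0.52), equal cell weights (-0.58), the gate (-0.37) and cluster 15 alone (-0.01), and Lhcgr in AMH / control passed it with equal weights (-0.61). The gate gave 1 of the 6 genes for doxorubicin+AMH / doxorubicin in granulosa (Pde10a, 1.00) and in stroma (Pde4d, -0.66). Target counts without the filter were 5 and 7 in granulosa and 6 and 5 in stroma for the hormone contrasts, and 1 in stroma for doxorubicin+AMH / AMH, as with the gate; the gate gave 2 in granulosa for doxorubicin+AMH / doxorubicin and equal weights 1 for doxorubicin+AMH / AMH. In theca doublets left in gave 0 pathway and 0 target genes for doxorubicin / control and 1 target gene for doxorubicin+AMH / AMH, as did the mitochondrial limit, and equal weights gave 2 for doxorubicin / control. Pathway counts became 1 with 1 CPM added or doublets left in (granulosa, AMH / control), with the gate (stroma, AMH / control) and without the dividing cluster (stroma, doxorubicin+AMH / AMH), and 2 without the filter (granulosa, doxorubicin+AMH / doxorubicin). Stroma target genes for doxorubicin / control became 1 with median-of-ratios scaling, 1 CPM added, the 10% limit or 500 UMIs. The cause of these shifts was not tested. Pde10a, Prkar2b in AMH / control and Pde4d in doxorubicin+AMH / doxorubicin kept their calls in all 9 theca alternatives, and no ratio past 1.5-fold changed sign. No paired analysis was possible because each group has 1 library. Depth limits Fshr outside granulosa-like cells and Lhcgr outside theca-like cells, where class levels were low; free RNA was not measured.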

Other observations

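The 3 unnamed clusters entered no class comparison in the main analysis. In alternatives, cluster 11 was added to granulosa and cluster 1 to stroma. Cluster 11, a low-UMI cluster of 916 cells led by Spef2 and Unc5c, had more Fshr than any granulosa-like cluster in each library, at 336, 420.3, 304 and 250.3 CPM (libraries ordered as above), with 578, 610, 678 and 705 CPM of Prkar2b. Cluster 1, led by Myh11 and Acta2 with 2752 cells, had 201, 225, 167 and 164 CPM of Pde4d and 1.55 to 3.92 CPM of Lhcgr. Cluster 27, with 177 of its 182 cells from the doxorubicin library and both Inhba and Myh11 among its leading genes, had 32.3 CPM of Fshr, 35.9 CPM of Lhcgr, 831 CPM of Prkar2b and 182 CPM of Pde10a in that library.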
